A study of Homo sapiens with 4 samples.

Results

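The genes described here encode the machinery that licenses and copies DNA, and they were chosen by name as 39 genes out of the 58735 listed for each library. All 39 were found once, by symbol, and all 39 passed the filter on low counts. They comprise the origin recognition complex (ORC1 to ORC6), the loading factors and their control (CDC6, CDT1, GMNN and MCM10), the helicase ring (MCM2 to MCM7), its activators (CDC45 and GINS1 to GINS4), the sliding clamp and its loader (PCNA and RFC1 to RFC5), DNA polymerase alpha-primase (POLA1, POLA2, PRIM1 and PRIM2), the catalytic subunits of the leading and lagging strand polymerases (POLE and POLD1), the Okazaki fragment enzymes FEN1 and LIG1, the nucleotide supply enzymes (RRM1, RRM2 and TYMS) and the transcription factor E2F1. RNA was sequenced from HCT116, a human colon carcinoma cell line, in 2 groups of 2 libraries. The RBM25_sh libraries carry a short hairpin RNA (shRNA) against RBM25, which encodes an RNA-binding splicing regulator. The control_sh libraries carry a control shRNA, and the labels give the same culture medium for both groups and no time after knockdown. The labels do not say whether same-group libraries came from separate cultures, so the p-values describe how these libraries vary, and that variation may be technical.

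Replication origins are licensed before S phase, when the origin recognition complex with CDC6 and CDT1 loads the MCM2-7 ring onto DNA. Geminin, the product of GMNN, binds CDT1 and blocks further loading, so that each origin fires at most once a cycle. CDC45 and GINS then join the ring to make the active helicase, primase starts each new strand, and PCNA, loaded by replication factor C, holds the polymerases on the template. Many of these genes are transcribed at the G1/S boundary under E2F factors. Proliferating cancer lines such as HCT116 express the whole set.

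After RBM25 knockdown most replication genes stood higher than in control libraries, with the largest differences in MCM4 (2.39-fold), PCNA (2.23-fold), GMNN (1.98-fold) and ORC6 (1.89-fold), while E2F1 and CDC45 stood lower and the primase group was mixed. The log2 fold change (RBM25_sh over control_sh) was above 0 for 31 of 39 genes, with a median of 0.35, where 47.5% of all 16091 tested genes were above 0 and their median was −0.04. MCM4 was the single member past the threshold of an edgeR adjusted p of 0.05, so 1 of 39 was called higher, where 0.653% of all tested genes were. None was called lower, where 2.4% of all tested genes were. At an unadjusted edgeR p under 0.05 none of the 39 was lower, where 13.5% of all tested genes were, and 7 were higher, where 7.92% were. The DESeq2 Wald test called 4 members higher (ORC6, GMNN, MCM4 and PCNA), where 2.38% of the genes it tested were. It called none lower, where 4.12% were. In counts scaled to library size with TMM factors (CPM), both RBM25_sh libraries lay above both control_sh libraries for 20 members, where 23.9% of all tested genes did, and below both for 2, CDC45 and E2F1, where 27.9% did. For the other 17 members the groups overlapped. In bulk RNA, more cells in S phase and more RNA per cell cannot be told apart.

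**Figure D1:**
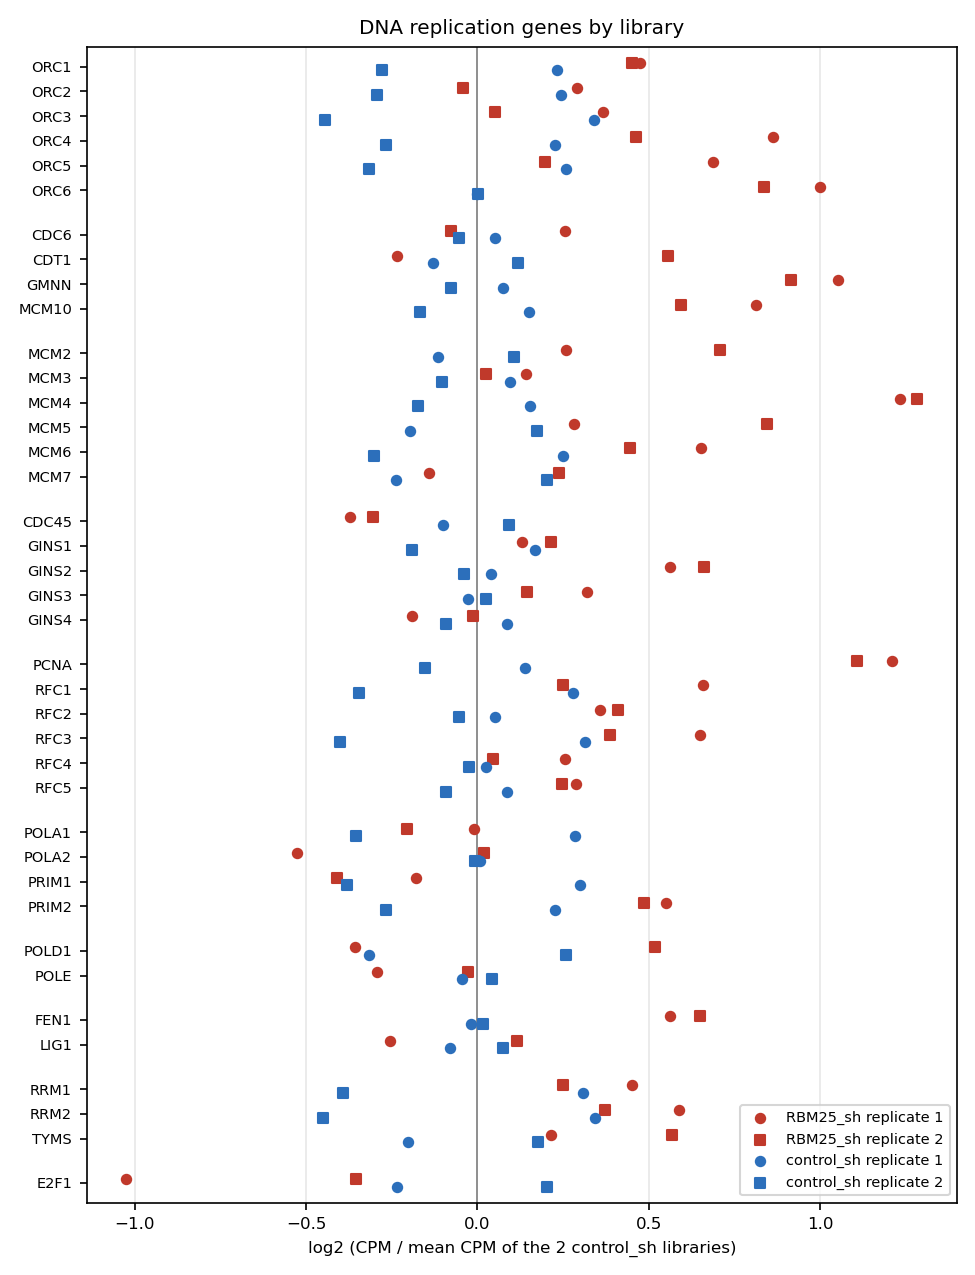
Each row is 1 gene, grouped by subcomplex, and each point is 1 library as log2 of its CPM over the mean CPM of the 2 control_sh libraries. Both RBM25_sh libraries (red) lie to the right of both control_sh libraries (blue) for 20 genes, farthest for MCM4 and PCNA, and to the left for CDC45 and E2F1.

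The knockdown itself was seen in RBM25 at 44.0 and 35.7 CPM in RBM25_sh libraries, against 155 and 115 CPM in control_sh libraries (log2 fold change −1.76 ± 0.30, edgeR adjusted p = 0.0195). Library totals were 15528274 and 16335555 counts in the RBM25_sh group and 15528869 and 16982663 counts in the control_sh group. Epithelial identity was checked on EPCAM, at 286 and 246 CPM in RBM25_sh libraries and 287 and 269 CPM in control_sh libraries. Of 8 epithelial markers listed 6 were tested, with log2 fold changes from −0.23 to 0.58, and edgeR called none with group as the only term. With a correction for GC content, described below, they ran from −0.14 to 0.82. Of these, 2 were then called higher, where 17.1% of all tested genes were. The differentiated markers VIL1 and CEACAM5 had at most 3 counts in any library. Of 14 markers of blood, endothelial and stromal cells, 3 to 6 had no count in a given library. Their summed CPM was 39.6 and 51.9 in RBM25_sh libraries and 45.5 and 68.8 in control_sh libraries, and most of it was COL1A1, since without it the sums were 2.55 and 4.84 against 6.45 and 6.86.

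Replicates differed along base composition, and this touches every value given for the members. In each group the log2 difference of replicate 2 from replicate 1 followed GC content (Spearman 0.82 in each group over 11354 genes, which are not independent replicates). Of the 39 members, 20 were lower in replicate 2 in both groups, and their longest transcripts have a GC content of 37.7% to 51.6%. The 11 members that were higher in replicate 2 in both groups have 49.8% to 65.0%. An alternative fit removed each library's smooth trend of expression on GC content before the same edgeR test. With this correction 30.2% of all tested genes were called, 17.1% higher and 13.1% lower. Among the members 17 of 39 were then called higher and none lower, with a median log2 fold change of 0.39 against 0.06 over all tested genes. The log2 fold change was above 0 for 33 members, where 54.3% of all tested genes were. In CPM corrected in this way both RBM25_sh libraries lay above both controls for 27 members, where 37.2% of all tested genes did, and below both for CDC45, PRIM1 and E2F1, where 29.8% did. At an unadjusted edgeR p under 0.05 in that fit 22 members were higher, where 23.6% of all tested genes were, and 1, E2F1, was lower, where 18.4% were. With each trend fitted to deviations from a gene's mean, 13 of the 17 were called and no other member; ORC1, RFC1, RFC3 and TYMS lost their calls (edgeR adjusted p of 0.0682, 0.0625, 0.0583 and 0.0573).

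**Figure D2:**
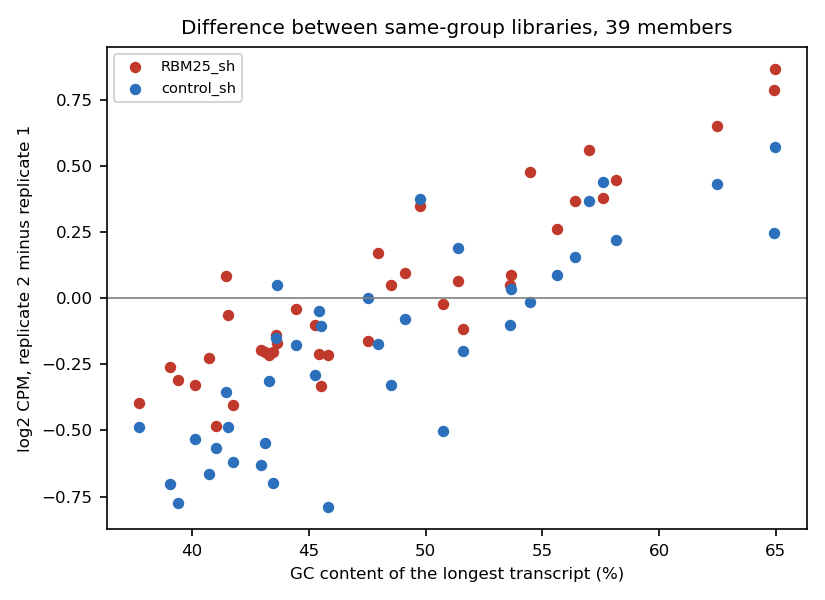
Each point is 1 of the 39 genes in 1 group, with the GC content of its longest transcript on the horizontal axis and log2 CPM of replicate 2 minus replicate 1 on the vertical axis. In RBM25_sh (red) and control_sh (blue) libraries alike, most AT-rich members lie below 0 and most GC-rich members above it; 31 of the 39 have the same sign in both groups.

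Summed within a library, the deposited FPKM (counts divided by gene length and by 1 factor per library) gave a level for each subcomplex. That factor was 0.951 and 0.9985 of the count total in RBM25_sh libraries, and 1.058 and 1.1 of it in control_sh libraries. Relative to control_sh, FPKM of RBM25_sh libraries therefore stand higher than counts scaled by library totals would. The clamp and loader group had the widest separation, with summed FPKM of 327 and 285 in RBM25_sh libraries and 183 and 148 in control_sh libraries, a ratio of means of 1.85. PCNA carried most of it, since RFC1 to RFC5 alone summed to 109 and 91.8 FPKM in RBM25_sh libraries against 84.5 and 67.8 FPKM in control_sh libraries, a ratio of 1.32. The helicase ring summed to 245 and 262 FPKM in RBM25_sh libraries against 186 and 196 FPKM in control_sh libraries, a ratio of 1.33. In the origin recognition complex the sums were 69.0 and 54.4 FPKM in RBM25_sh libraries against 51.8 and 36.1 FPKM in control_sh libraries. These 3 groups did not overlap, and neither did the next 3. The loading group summed to 85.5 and 95.0 FPKM in RBM25_sh libraries against 66.3 and 68.2 FPKM in control_sh libraries. FEN1 with LIG1 summed to 50.8 and 53.7 FPKM in RBM25_sh libraries against 36.9 and 38.7 FPKM in control_sh libraries, and the nucleotide enzymes to 124 and 111 FPKM against 100.4 and 71.1 FPKM. CDC45 with GINS1 to GINS4 differed least among the groups that did not overlap, at 36.2 and 36.3 FPKM in RBM25_sh libraries against 33.7 and 32.4 FPKM in control_sh libraries. This margin is narrower than the spread of the library factors above. Polymerase alpha-primase (28.0 and 24.3 FPKM in RBM25_sh, 29.7 and 19.6 FPKM in control_sh) and POLD1 with POLE (19.5 and 28.8 FPKM in RBM25_sh, 20.4 and 26.1 FPKM in control_sh) overlapped. All 39 genes together summed to 991 and 960 FPKM in RBM25_sh libraries against 718 and 649 FPKM in control_sh libraries, 1.43-fold higher. The log2 ratio of this sum was 0.51 in FPKM and 0.48 with TMM scaling. With 2 libraries against 2 the smallest exact two-sided permutation p is 0.333, so these sums carry no test.

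**Figure D3:**
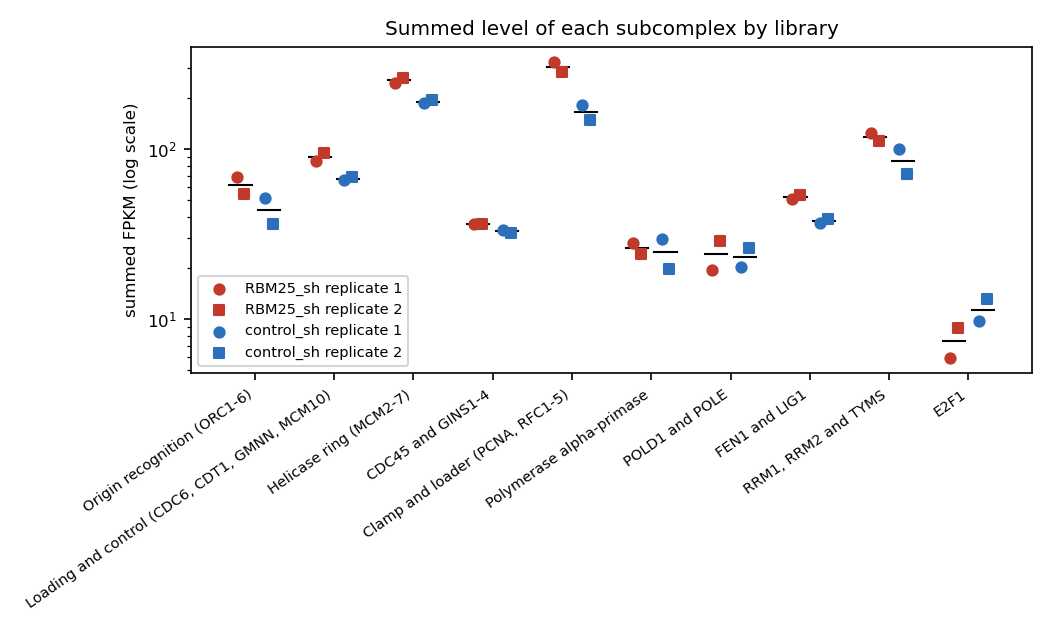
Points are the summed FPKM of a subcomplex in 1 library on a log axis, with RBM25_sh (red) left of control_sh (blue), and black lines are group means. The groups stand apart most for the clamp and loader genes (306 against 166 FPKM on average) and overlap for the polymerase alpha-primase and the POLD1 with POLE groups.

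Because many of these genes are transcribed under E2F factors, the start regions of the members were searched for 4 E2F-type words. The words were TTTCCCGC, TTTCGCGC, TTTGCCGC and TTTGGCGC, on both strands. The windows run from 250 bases before to 50 bases after each RefSeq gene start (GRCh38.p14). Windows were found for 36 members, the exceptions being MCM4, MCM5 and GINS4. At least 1 word was present in 19 of these 36 genes and in 41.3% of their 46 windows, where 3.31% of all 35116 windows hold one. The words TTTCGCGC and TTTGGCGC can overlap a further TTTCGCGC on the opposite strand. A match describes these letters and is not evidence of binding. Of the 15 members with a window that were called higher after the GC correction 7 had a word, and of the 21 others 12 did. Without that correction, the median log2 fold change was 0.21 for the 19 genes with a word and 0.46 for the 17 without.

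The stretches below show the words in helicase subunits with larger and smaller differences, in GMNN, GINS2 and PCNA, which stood higher, and in E2F1, which stood lower. Each is 70 bases, read 5′ to 3′ on the gene's strand, with the E2F-type words in capitals.
MCM2, chr3:127598370-127598439, plus strand: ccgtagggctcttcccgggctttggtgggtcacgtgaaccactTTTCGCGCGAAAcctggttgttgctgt
MCM3, chr6:52284724-52284793, minus strand: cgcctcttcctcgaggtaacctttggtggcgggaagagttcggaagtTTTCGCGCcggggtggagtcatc
MCM6, chr2:135876507-135876576, minus strand: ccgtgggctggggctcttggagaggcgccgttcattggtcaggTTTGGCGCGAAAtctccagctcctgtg
MCM7, chr7:100101384-100101453, minus strand: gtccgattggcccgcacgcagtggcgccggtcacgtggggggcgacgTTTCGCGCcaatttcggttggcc
GMNN, chr6:24775286-24775355, plus strand: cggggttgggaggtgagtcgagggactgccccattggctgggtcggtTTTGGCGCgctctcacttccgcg
GINS2, chr16:85688963-85689032, minus strand: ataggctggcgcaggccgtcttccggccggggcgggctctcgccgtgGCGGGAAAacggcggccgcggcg
PCNA, chr20:5126659-5126728, minus strand: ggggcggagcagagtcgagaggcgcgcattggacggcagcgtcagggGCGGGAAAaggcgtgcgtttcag
E2F1, chr20:33686383-33686452, minus strand: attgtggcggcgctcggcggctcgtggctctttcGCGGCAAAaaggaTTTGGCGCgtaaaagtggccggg
In MCM2 and MCM6 a pair of words overlap on opposite strands, while in GINS2 and PCNA the word lies on the opposite strand of the gene. MCM2, MCM3 and MCM7 all carry TTTCGCGC at the gene start, and their log2 fold changes were 0.50 ± 0.28, 0.08 ± 0.26 and 0.06 ± 0.29, with the GC correction 0.75 ± 0.14, 0.25 ± 0.16 and 0.33 ± 0.15.

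Among the ORC genes, ORC6 (ENSG00000091651, chromosome 16, 46689643 to 46698394, GRCh38), the smallest subunit of the complex, differed most. It stood at 51.1 and 45.6 CPM in RBM25_sh libraries and at 25.6 and 25.6 CPM in control_sh libraries. The groups did not overlap, and the means were 48.4 ± 3.89 and 25.6 ± 0.0395 CPM (SD, n = 2 each). The log2 fold change of 0.92 ± 0.28 (SE) did not pass (edgeR adjusted p = 0.101), while the GC-corrected value was 0.99 ± 0.15 (edgeR adjusted p = 0.00111). ORC4, an ATPase-fold subunit, and ORC1, the subunit whose ATPase activity drives ring loading, were also called after the correction, at 0.54 ± 0.14 (edgeR adjusted p = 0.0133) and 0.60 ± 0.20 (edgeR adjusted p = 0.0441), ORC1 not with the trend of deviations. The core subunits ORC2, ORC3 and ORC5 were not called in either fit, with log2 fold changes of 0.13 ± 0.30, 0.22 ± 0.33 and 0.46 ± 0.32.

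In the loading group the licensing inhibitor GMNN and the initiation factor MCM10 stood higher, and the loaders CDC6 and CDT1 were called in neither fit. GMNN (ENSG00000112312, chromosome 6, 24774931 to 24786099) had 55.7 and 50.6 CPM in RBM25_sh libraries and 28.3 and 25.4 CPM in control_sh libraries. Both RBM25_sh values were above both controls, a 1.98-fold difference of 0.98 ± 0.28 on the log2 scale (edgeR adjusted p = 0.0851, with the GC correction 0.00101). MCM10, which helps to activate the helicase, differed by 0.71 ± 0.28 (edgeR adjusted p = 0.186) and by 0.71 ± 0.14 after the correction (edgeR adjusted p = 0.00397). CDC6, the ATPase that recruits the ring with ORC, had 113 and 89.9 CPM in RBM25_sh libraries and 98.3 and 91.4 CPM in control_sh libraries, and CDT1, the ring's chaperone, had 101 and 174 CPM against 108 and 129 CPM. Both overlapped between the groups. In GC-corrected CPM CDC6 still overlapped, while CDT1 did not, with 139 and 149.7 in RBM25_sh libraries against 133 and 88.3 in control_sh libraries (0.39 ± 0.18, edgeR adjusted p = 0.128). Within a library the FPKM ratio of GMNN to CDT1 was 0.745 and 0.392 in RBM25_sh libraries, against 0.352 and 0.267 in control_sh libraries. CDT1 is far richer in GC (64.9%) than GMNN (43.6%), so this ratio also moves with the replicate number. The ratio of GMNN to CDC6, which are close in GC content (CDC6 at 45.5%), was 1.10 and 1.26 in RBM25_sh libraries against 0.646 and 0.624 in control_sh libraries.

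The helicase ring held the member with the largest change, and its subunits differed unequally. MCM4 (ENSG00000104738, chromosome 8, 47960185 to 47978160) had 345 and 358 CPM in RBM25_sh libraries and 164 and 130.4 CPM in control_sh libraries. The groups were well apart, with means of 352 ± 8.93 and 147 ± 23.5 CPM (SD, n = 2 each), and MCM4 rose 2.39-fold (1.26 ± 0.27, edgeR adjusted p = 0.0433). MCM4 lost this call without either RBM25_sh library (edgeR adjusted p of 0.326 and 0.282) at nearly the same fold change, 1.30 and 1.27. MCM5 (0.84 ± 0.14), MCM2 (0.75 ± 0.14) and MCM6 (0.56 ± 0.14), also ATPase subunits of the ring, were called higher after the GC correction with edgeR adjusted p-values of 0.00205, 0.00397 and 0.0135. Without it they differed by 0.59 ± 0.30, 0.50 ± 0.28 and 0.55 ± 0.29, with both RBM25_sh libraries above both controls. MCM3 (0.08 ± 0.26, GC-corrected 0.25 ± 0.16) and MCM7 (0.06 ± 0.29, GC-corrected 0.33 ± 0.15) were called in neither fit. MCM7 is the most abundant ring subunit per length, with 74.1 and 91.9 FPKM in RBM25_sh libraries against 66.1 and 89.4 FPKM in control_sh libraries, and its gene overlaps AP4M1 on the opposite strand.

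The active ring holds its subunits in equal numbers, so their shares of the ring's RNA were compared within each library. MCM4 made up 20.4% and 18.8% of the summed MCM2-7 FPKM in RBM25_sh libraries, against 12.1% and 9.17% in control_sh libraries. MCM7 made up 30.2% and 35.1% in RBM25_sh libraries against 35.5% and 45.7% in control_sh libraries, and MCM3 20.6% and 16.96% against 25.1% and 20.7%. For these subunits the groups did not overlap, MCM4 being higher and MCM7 and MCM3 lower in RBM25_sh, although MCM7 and MCM3 were apart only by a narrow margin (35.1% in RBM25_sh replicate 2 against 35.5% in control_sh replicate 1 for MCM7). The shares of MCM2, MCM5 and MCM6 overlapped. Shares add up to the whole, so a higher MCM4 lowers the rest. With MCM4 left out of the sum MCM7 and MCM3 overlapped, MCM7 at 37.9% and 43.2% in RBM25_sh libraries against 40.4% and 50.3% in control_sh libraries, and MCM3 at 25.9% and 20.9% against 28.6% and 22.8%. MCM2 and MCM5 then lay above in both RBM25_sh libraries, MCM2 at 10.8% and 12.9% against 9.50% and 10.2%, and MCM5 at 7.08% and 9.15% against 5.78% and 6.86%. The ratio of MCM4 to MCM2 was 2.37 and 1.80 in RBM25_sh libraries, against 1.45 and 0.994 in control_sh libraries. MCM2 is richer in GC (58.1%) than MCM4 (48.5%), so this ratio also moves with the replicate number. Neither the shares nor this ratio were corrected for GC content. The gene lengths used for FPKM are those listed in the deposited tables, so a share compares groups more safely than subunits.

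**Figure D4:**
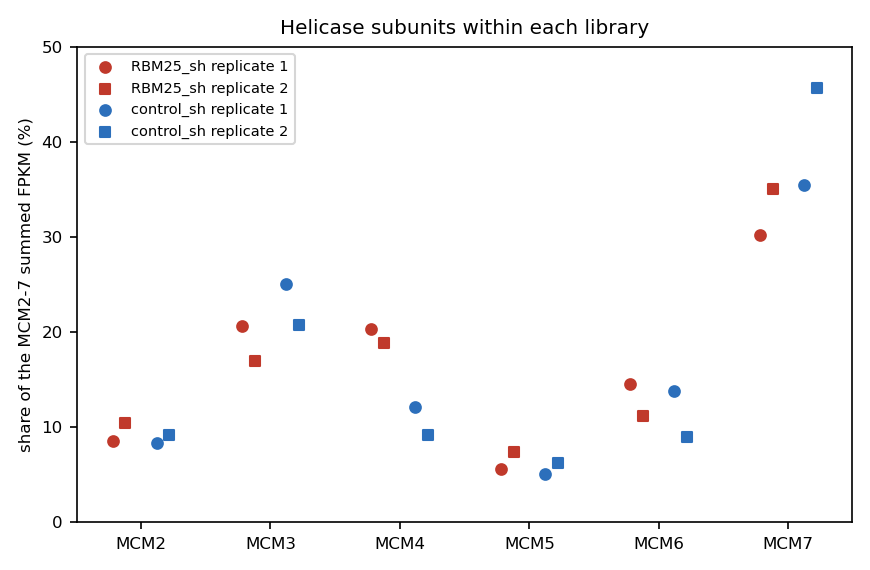
Points are the percentage of the summed MCM2-7 FPKM held by each subunit in 1 library, with RBM25_sh (red) left of control_sh (blue). MCM4 is higher in both RBM25_sh libraries (20.4% and 18.8%) than in both control_sh libraries (12.1% and 9.17%), and MCM3 and MCM7 are lower by narrow margins that close when MCM4 is left out of the sum.

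Of the factors that turn the ring into the active helicase, GINS2 alone stood out. It had 35.6 and 38.0 CPM in RBM25_sh libraries and 24.7 and 23.4 CPM in control_sh libraries, without overlap. Its difference of 0.61 ± 0.28 did not pass (edgeR adjusted p = 0.239) and was 0.72 ± 0.15 after the GC correction (edgeR adjusted p = 0.00607). The other GINS subunits had log2 fold changes of 0.17 ± 0.28 (GINS1), 0.23 ± 0.30 (GINS3) and −0.10 ± 0.29 (GINS4). CDC45, the helicase cofactor, had 27.3 and 28.6 CPM in RBM25_sh libraries and 33.0 and 37.7 CPM in control_sh libraries. Both RBM25_sh values were the lower ones, but neither fit called the difference (−0.34 ± 0.28 with an edgeR adjusted p of 0.523, and −0.17 ± 0.15 after the correction).

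PCNA, the sliding clamp, was the most abundant member per length in both groups and came next to MCM4 in the size of its difference. PCNA (ENSG00000132646, chromosome 20, 5114953 to 5126626) had 317 and 296 CPM in RBM25_sh libraries and 151 and 123 CPM in control_sh libraries. The groups did not overlap, and the 2.23-fold difference (1.16 ± 0.27) lay just outside the threshold with an edgeR adjusted p of 0.0522. Leaving out RBM25_sh replicate 1 or 2 gave PCNA an edgeR adjusted p of 0.497 or 0.296, and leaving out control_sh replicate 1 or 2 gave 0.00314 or 0.0331. Scaling by library totals gave 0.0619. PCNA was called by DESeq2 (adjusted p = 0.0018) and in the GC-corrected fit (1.20 ± 0.14, edgeR adjusted p = 3.87e-04). The loader subunits that place the clamp on DNA differed less. RFC2, RFC3 and the large subunit RFC1 were called after the correction, at 0.58 ± 0.17, 0.44 ± 0.14 and 0.44 ± 0.15 (edgeR adjusted p of 0.0234, 0.0386 and 0.0427), RFC2 alone of these with the trend of deviations, and RFC4 (0.19 ± 0.14) and RFC5 (0.30 ± 0.13) were not. The FPKM ratio of PCNA to RFC1 was 8.58 and 10.6 in RBM25_sh libraries against 5.30 and 6.68 in control_sh libraries. This ratio was higher in replicate 2 in both groups and was not corrected for GC content.

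The genes that start and extend new strands differed in both directions, and their summed levels differed least. PRIM2, the large primase subunit, had 50.6 and 48.4 CPM in RBM25_sh libraries and 40.4 and 28.7 CPM in control_sh libraries, without overlap (0.52 ± 0.29, edgeR adjusted p = 0.339; GC-corrected 0.49 ± 0.15, edgeR adjusted p = 0.0277). The catalytic primase PRIM1 (−0.29 ± 0.33), the polymerase alpha subunit POLA1 (−0.10 ± 0.30) and its partner POLA2 (−0.23 ± 0.39) were called in neither fit. With the GC correction their log2 fold changes were −0.33, −0.09 and −0.02. POLA2 had 43 and 66 counts in RBM25_sh libraries and 66 and 74 counts in control_sh libraries. It overlaps AP000944.2 on the same strand over 43662 bases, so reads of either gene may not have been assigned. PRIM1 overlaps AC117378.1 on the same strand over 9940 bases. POLE, the catalytic subunit of polymerase epsilon, had 142 and 170.0 CPM in RBM25_sh libraries and 168 and 179 CPM in control_sh libraries. Its groups overlapped, and its difference was −0.15 ± 0.27 (edgeR adjusted p = 0.783) and 0.07 ± 0.15 after the correction. POLD1, the catalytic subunit of polymerase delta, is the member richest in GC (65.0%) and had 53.1 and 97.3 CPM in RBM25_sh libraries and 54.6 and 81.4 CPM in control_sh libraries, so that replicates lay farther apart than groups. With the GC correction POLD1 had 73.5 and 83.6 CPM in RBM25_sh libraries against 66.9 and 55.9 CPM in control_sh libraries (0.36 ± 0.15, edgeR adjusted p = 0.0851).

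FEN1, the flap nuclease that trims Okazaki fragments, and LIG1, the ligase that seals them, differed from each other. FEN1 had 99.5 and 106 CPM in RBM25_sh libraries and 66.6 and 68.2 CPM in control_sh libraries, with no overlap (0.61 ± 0.26, edgeR adjusted p = 0.22; GC-corrected 0.81 ± 0.14, edgeR adjusted p = 0.0026). FEN1 overlaps FADS2 on the same strand and TMEM258 on the opposite strand. LIG1 had 66.8 and 86.5 CPM in RBM25_sh libraries and 75.5 and 84.1 CPM in control_sh libraries, which overlapped (−0.06 ± 0.28, and 0.17 ± 0.14 after the correction).

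None of the nucleotide enzymes was called with group as the only term, and their sizes turned on which control library was kept. RRM2, the regulated subunit of ribonucleotide reductase, overlaps AC007240.1 on the same strand over 8681 bases. RRM2 had 278 and 239.8 CPM in RBM25_sh libraries and 235 and 136 CPM in control_sh libraries. The groups were separated by a narrow margin, and the difference of 0.48 ± 0.32 did not pass (edgeR adjusted p = 0.421, with the GC correction 0.0605). It was 0.94 without control_sh replicate 1 (edgeR adjusted p = 0.0453) and 0.14 without control_sh replicate 2 (edgeR adjusted p = 0.857). RRM1, the large subunit, overlapped between the groups (0.35 ± 0.31), with 0.76 and 0.044 when control_sh replicate 1 or 2 was left out. TYMS, the thymidylate synthase, was called after the correction (0.53 ± 0.16, edgeR adjusted p = 0.0325) but not with the trend of deviations. Uncorrected, TYMS differed by 0.40 ± 0.29, with 0.23 and 0.60 when control_sh replicate 1 or 2 was left out. TYMS overlaps ENOSF1 on the opposite strand over 3255 bases, and without a stated strand setting reads of the pair cannot be told apart.

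E2F1 (ENSG00000101412, chromosome 20, 33675683 to 33686404), a transcription factor that activates many of the genes above, had the lowest log2 fold change of the 39. It stood at 14.6 and 23.3 CPM in RBM25_sh libraries and at 25.2 and 34.2 CPM in control_sh libraries. Both RBM25_sh libraries were below both controls, though RBM25_sh replicate 2 came close to control_sh replicate 1. The difference was −0.65 ± 0.33 (edgeR adjusted p = 0.298), the GC-corrected one −0.40 ± 0.17 (edgeR adjusted p = 0.0938), and neither passed. Leaving out RBM25_sh replicate 1 gave −0.33 and replicate 2 −0.99, and leaving out control_sh replicate 1 gave −0.84 and replicate 2 −0.415. Without RBM25_sh replicate 1 or control_sh replicate 2 PRIM1 was lower than E2F1 (−0.39 and −0.59). By mean FPKM E2F1 ranked 35 of the 39 genes in the RBM25_sh group and 21 in the control_sh group, whereas MCM4 ranked 3 in RBM25_sh against 9 in control_sh and GMNN 14 against 23.

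**Figure D5:**
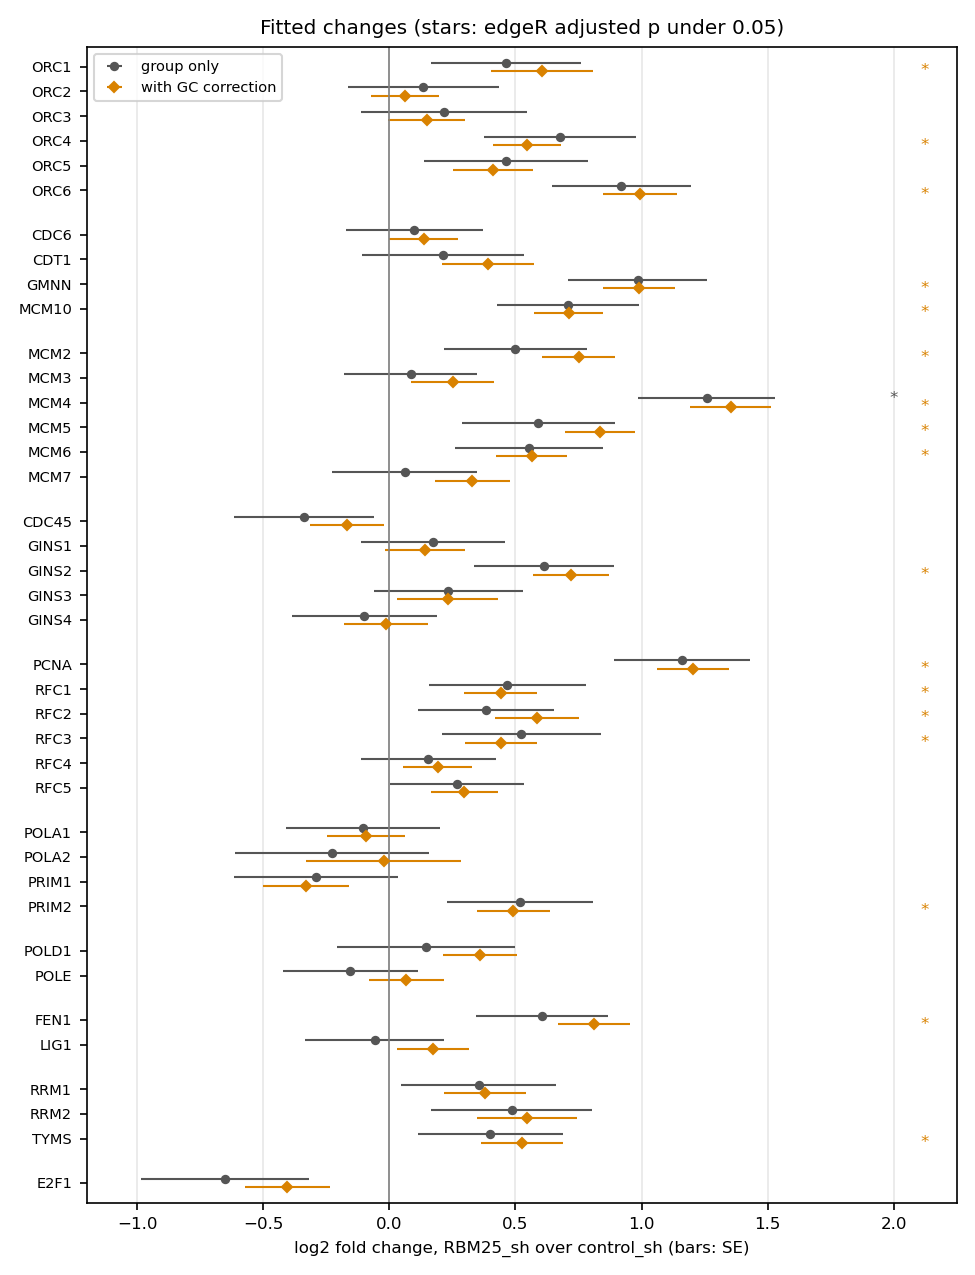
Points are edgeR log2 fold changes (RBM25_sh over control_sh) with SE bars, for the fit with group as the only term (grey) and for the fit with the GC correction (orange), and stars mark an adjusted p under 0.05 in the fit of the same colour. MCM4 is starred in both fits, 16 more genes are starred in orange alone, and E2F1 has the lowest value in both.

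Another 63 replication and G1/S genes, listed by pathway, were measured in all libraries. edgeR called none of them in the fit with group as the only term, where 3.05% of all tested genes were called. At an unadjusted edgeR p under 0.05 there were 12 higher and 2 lower, where 7.92% and 13.5% of all tested genes were. The DESeq2 Wald test called 1 higher, CCNE2, and none lower, where 2.38% and 4.12% of the genes it tested were. In the fit with group as the only term the median log2 fold change of the 63 genes was 0.32. After the GC correction 27 were called higher, where 17.1% of all tested genes were, and 5 lower, where 13.1% were. The smallest p-values belonged to RNASEH2A, CCNE2, POLD4, POLE3, DSCC1 and MCM8. CCNE2, which encodes cyclin E2, had 18.5 and 14.6 CPM in RBM25_sh libraries against 8.60 and 6.19 CPM in control_sh libraries (1.16 ± 0.33, edgeR adjusted p = 0.0856). RNASEH2A, a subunit of the nuclease that removes ribonucleotides from DNA, differed by 1.79 ± 0.48 (edgeR adjusted p = 0.0744), at a level of 3.35 and 2.99 CPM against 0.759 and 1.06 CPM. It overlaps HOOK2 on the opposite strand and THSD8 on the same strand over 7026 bases, so some reads may not have been assigned. The polymerase epsilon subunit POLE3 (0.80 ± 0.27), the alternative clamp loader subunit DSCC1 (0.95 ± 0.33) and the MCM paralog MCM8 (0.87 ± 0.31) stood higher in both RBM25_sh libraries, with edgeR adjusted p-values of 0.137, 0.139 and 0.149. POLD4, the small polymerase delta subunit, stood lower, with 2.55 and 4.59 CPM in RBM25_sh libraries against 7.40 and 11.05 CPM in control_sh libraries (−1.37 ± 0.40, edgeR adjusted p = 0.0967). CCNE2 overlaps INTS8, and POLD4 overlaps RAD9A, on the opposite strand. POLD4 also overlaps AP003419.1 on the same strand over 5401 bases. The genes called lower after the correction were POLD4 (−1.10 ± 0.26), POLD2 (−0.43 ± 0.14), RPA3 (−0.46 ± 0.16), MCM9 (−0.64 ± 0.18) and E2F5 (−0.76 ± 0.21). POLD4, POLD2 and RPA3 encode accessory subunits of polymerase delta and of the single-strand binding complex RPA. MCM9, RPA3 and E2F5 overlap ASF1A, UMAD1 and C8orf59 on the opposite strand.

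Proliferation markers also stood higher in the RBM25_sh libraries. MKI67 had 1292 and 1094 CPM in RBM25_sh libraries against 1041 and 668 CPM in control_sh libraries (0.48 ± 0.29, edgeR adjusted p = 0.379), and CDK1 had 256 and 204 CPM against 162 and 102 CPM (0.80 ± 0.31, edgeR adjusted p = 0.177). All 4 markers listed (MKI67, TOP2A, CCNB1 and CDK1) had log2 fold changes from 0.45 to 0.80, and none passed with group as the only term. These sizes turned on the control library kept. They ran from 0.60 to 1.18 without control_sh replicate 1 and from 0.16 to 0.51 without control_sh replicate 2. TOP2A is also 1 of the 63 genes above. After the GC correction CDK1 (0.68 ± 0.14) and CCNB1 (0.45 ± 0.14) were called higher (edgeR adjusted p of 0.00511 and 0.0345), where 17.1% of all tested genes were. Their part in the differences of the replication genes was not tested.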

How the data were processed

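The authors deposited, for each library, whole-number counts and FPKM of every gene. The submitters' processing notes list Cuffdiff 2.1.1, Cufflinks 2.1.1, TopHat2 2.0.9 and Bowtie2 2.0.6, with no role for any. The counting tool, the strand setting and the build were not given in the sources used here. Gene positions equal those of GENCODE release 29 (GRCh38) for all 58735 genes. The deposited FPKM equal count over listed length over 1 factor per library. Libraries were grouped by title. Counts were fitted in edgeR 4.0.16 (R 4.3.3) with filterByExpr, TMM and a two-sided quasi-likelihood F test with group as the only term (2 residual degrees of freedom), Benjamini-Hochberg adjusted over 16091 genes at 0.05. SE is the log2 fold change over the square root of F. The GC correction enters each library's lowess trend (span 0.3) of log2 CPM (prior count 2) on the GC content of a gene's longest transcript as an offset. Alternatives were DESeq2 1.42.0, other scalings, no filter, a replicate block and leaving out each library. Fits were also run on simulated counts. Their spread was set and not estimated from these libraries, so that run lends no weight to the calls. Same-group libraries differed by more than counting noise (chi-square per degree of freedom 27.7 in RBM25_sh and 70.9 in control_sh). The members, lists and alternatives were chosen with earlier results of these data known, except the trend of deviations, chosen after seeing the data. The value in every library is given for members called, the smallest p in each subcomplex and the extreme fold changes, and among the 63 other genes the 6 with the smallest p are named; CDC6, CDT1, CDC45, MCM7, POLD1, POLA2 and LIG1 were added to these after their values were seen, as were the genes called lower after the correction, the RFC sum without PCNA and the ring shares without MCM4. Figures were drawn with matplotlib 3.10.9.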

Additional observations from a re-analysis of the deposited data

How the results depend on the processing

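The direction of the members' median held in every alternative run, with 0.21 to 0.43 when 1 library was left out, and MCM4 kept its call except without either RBM25_sh library; such fits take the lone library to vary like the other group. Members called higher numbered 3 without the filter, 4 with DESeq2, 17 with the GC correction, 13 with the trend of deviations and 0 to 4 without 1 library; none was then lower. Over all genes the calls numbered 1438, 996, 4857, 4652 and 204 to 2389 under these settings. The 63 other genes had 2, 1, 27, 21 and 0 to 6 called higher, and 1, 0, 5, 5 and 0 to 2 called lower. These totals count both directions, over 30897 tested genes without the filter, 15322 with DESeq2 and 16091 with either GC fit. Without 1 library, 16792 to 17310 genes were tested. A group then holds a lone library, so the members called in those fits are not weighed against all genes. All tested genes were called higher in 1.42% without the filter, 2.38% with DESeq2, 17.1% with the GC correction and 14.5% with the trend of deviations. They were called lower in 3.23%, 4.12%, 13.1% and 14.4%. Titles give both groups the same replicate numbers, and same-numbered libraries deviated together (Pearson correlation of 0.73 across genes). No label says what a number marks. With the replicate block 17 members were called higher and 1 lower (E2F1), where 16.4% and 19.1% of all 16091 tested genes were. With the block and the GC correction 22 members were called higher and 1 lower (E2F1), where 22.8% and 17.2% of all tested genes were. Calls in either direction over all genes numbered 5722 with the block and 6424 with the block and the GC correction. Of the 63 other genes 29 were called higher and 5 lower in both block fits.

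Scaling by library totals moved the median of all genes by −0.11 and turned CDC6 (−0.011), MCM3 (−0.024) and MCM7 (−0.053). POLE turned to 0.067, 0.075 and 0.017 and LIG1 to 0.17, 0.18 and 0.12 with the GC correction, with it and the block, and with the trend of deviations. Without 1 library, uncalled members changed sign within −0.058 to 0.29 (CDC6), −0.20 to 0.57 (CDT1), −0.19 to 0.0055 (GINS4), −0.22 to 0.14 (LIG1), −0.013 to 0.20 (MCM3), −0.13 to 0.30 (MCM7), −0.11 to 0.44 (ORC2), −0.12 to 0.67 (ORC3), −0.39 to 0.26 (POLA1), −0.49 to 0.038 (POLA2), −0.32 to 0.54 (POLD1) and −0.59 to 0.10 (PRIM1). The log2 ratio of summed FPKM was 0.14 for CDC45 with GINS (0.11 to 0.17 without 1 library, 0.10 with TMM scaling), 0.45 for the nucleotide enzymes (0.23 to 0.72), 0.49 for ORC (0.25 to 0.77), 0.08 for polymerase alpha-primase (−0.19 to 0.41), 0.05 for POLD1 with POLE (−0.26 to 0.31) and −0.62 for E2F1 (−0.95 to −0.35). The cause of these shifts was not tested. The 2 libraries per group limit what single members can show.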
